A study of Homo sapiens with 192 samples.

Results

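A set of 10 genes that code for fucosyl, sialyl, galactosyl and N-acetylglucosaminyl transferases of Lewis antigens and related surface glycans was examined in 4 human colorectal cancer (CRC) cell lines. The genes were FUT2, FUT3, FUT4, FUT6, FUT8, B3GALT2, B3GALT5, B3GNT3, ST3GAL4 and ST6GAL1. They were chosen by name from the 58243 genes of the count tables, with earlier results of these data known. Counts of members set beside shares of all genes are therefore descriptions. All 10 passed the filter on low counts, which left 19387 genes for testing. B3GALT2 was taken up because it fell in LS513 cells grown in 3D, so that value is a description and carries no test. RNA sequencing of polyA+ RNA had been done on HT29, LS513, HCT116 and LS174T cells, each grown either in 2D or in 3D, with 3 libraries for each of the 8 groups and no other treatment. All 4 lines are established lines of human colorectal carcinoma, each a single line, and HCT116 was kept in McCoy medium while the others were kept in DMEM. The labels do not say whether the 3 libraries of a group came from separate cultures, so the p-values measure the spread between these libraries, which may be technical.

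Lewis antigens are short fucosylated sugar ends on glycoproteins and glycolipids of the gut epithelium. B3GNT enzymes extend the chain with N-acetylglucosamine, and B3GALT enzymes add the galactose that makes a type 1 chain. Fucosyltransferases decorate the galactose (FUT2) or the N-acetylglucosamine (FUT3, FUT4, FUT6) of chains that need not be of type 1. Sialyltransferases such as ST3GAL4 cap the galactose, and a sialylated and fucosylated chain gives sialyl Lewis antigens, which are ligands of selectins and the basis of the CA19-9 tumor marker. FUT8 and ST6GAL1 do not make the Lewis fucose linkages themselves, since FUT8 fucosylates the core of N-glycans and ST6GAL1 puts a sialic acid of another linkage on the chain end.

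Library totals lay between 18723942 and 34277421 counts, and 3 counts, taken here as the floor for a level, correspond to between 0.0853 and 0.164 CPM (counts-per-million after TMM scaling of library sizes). The lowest total was that of the library of HT29 in 2D replicate 3. Of 8 epithelial markers, EPCAM, CDH1, KRT8 and KRT18 were counted in every library, whereas CDH17 had at most 2 counts and VIL1 at most 9 counts in the HCT116 libraries. Of the other epithelial markers, KRT20, a keratin of differentiated gut epithelium, rose in 3D in all 4 lines, as FUT2 and FUT3 did, with log2 fold changes of 0.76 ± 0.15 for HT29, 1.54 ± 0.15 for LS513, 1.95 ± 0.26 for HCT116 and 3.93 ± 0.21 for LS174T (SE). CDX2, an intestinal transcription factor, rose in HT29 (2.25 ± 0.17), LS513 (0.60 ± 0.12) and LS174T (0.79 ± 0.12), and its value in HCT116 was 0.17 ± 0.12. The remaining epithelial markers did not share this pattern. KRT18 was called as lower in HT29 (log2 fold change -0.41 ± 0.14 SE) and KRT8 was called in no line. EPCAM was called as higher in LS513 alone, CDH1 in LS513 and HCT116, VIL1 in HT29 and LS513, and CDH17 in LS174T alone. Markers of other cell types were mostly at or near 0, with CD3E at 0 and PTPRC at no more than 2 counts in every library, and the summed level of the 3 endothelial markers was at most 2.14 CPM, with VWF called as higher in LS513 and HCT116. CD68, a leukocyte marker that is also a lysosomal protein of other cells, rose in 3D in all 4 lines, and CD14 rose in HT29 from 6.11 to 12.6 CPM. The summed level of the 4 leukocyte markers went from between 3.04 and 19.3 CPM in the 2D groups to between 5.8 and 78 CPM in the 3D groups. The summed level of the 5 fibroblast markers lay between 0.391 and 1.02 CPM except in HCT116, where COL1A1 brought it to 14.3 CPM in 2D and 16.4 CPM in 3D. The part of these markers in the results was not tested. In bulk RNA, fewer cells that express a gene and less of its RNA in each cell cannot be told apart.

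FUT3 and FUT6 are close relatives and neighbours of FUT5 on chromosome 19, and reads that aligned at more than 1 place had been removed before counting. The coding sequence of FUT3 was 90.7% identical to that of FUT6 and 93.9% identical to that of FUT5. Of the distinct 75-base words in the transcripts of each gene, 75 bases being the read length, 11.4% of those of FUT3, 6.19% of those of FUT6 and 81.9% of those of FUT5 also occurred in transcripts of another gene, so the counts of FUT3 and FUT6 rest on the parts that differ and FUT5 could hardly be counted. The coding window in which the 3 genes differ most is shown because reads over it tell them apart, with the 25 positions that are not alike in all 3 genes in capitals (GENCODE 29, GRCh38, coding strand, 5′ to 3′). It lies in the coding sequence at chr19:5844416-5844490 for FUT3, chr19:5832147-5832221 for FUT6 and chr19:5867263-5867337 for FUT5, all on the minus strand.
FUT3: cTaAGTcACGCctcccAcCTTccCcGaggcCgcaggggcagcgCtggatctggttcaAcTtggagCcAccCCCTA
FUT6: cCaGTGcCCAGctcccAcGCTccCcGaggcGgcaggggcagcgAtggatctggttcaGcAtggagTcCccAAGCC
FUT5: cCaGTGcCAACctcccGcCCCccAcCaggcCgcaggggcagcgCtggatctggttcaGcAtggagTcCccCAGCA
A little further downstream, a window of the same length is identical in the 3 genes and gives no read that belongs to 1 of them alone (chr19:5844314-5844388 in FUT3).
FUT3, FUT5 and FUT6: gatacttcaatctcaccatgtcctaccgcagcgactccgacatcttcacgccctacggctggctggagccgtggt

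FUT2 and FUT3 were the only members called higher in 3D in all 4 lines, and the 300 bases around their annotated start, most of them upstream, are shown for that reason (RefSeq, GRCh38.p14). ST3GAL4 was also higher in all 4 lines but just missed the call in LS174T (edgeR adjusted p = 0.0516). The FUT2 promoter is at chr19:48695721-48696020 on the plus strand and the FUT3 promoter at chr19:5851400-5851699 on the minus strand. Capitals mark ACGTG or GCGTG on either strand, which are core letters of hypoxia response elements, so CACGT in capitals is ACGTG read on the other strand.
FUT2: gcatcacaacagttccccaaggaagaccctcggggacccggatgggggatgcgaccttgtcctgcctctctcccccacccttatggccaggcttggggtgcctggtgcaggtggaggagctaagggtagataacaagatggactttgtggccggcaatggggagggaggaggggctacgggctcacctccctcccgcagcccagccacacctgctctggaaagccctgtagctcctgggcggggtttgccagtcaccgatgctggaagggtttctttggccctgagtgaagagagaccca
FUT3: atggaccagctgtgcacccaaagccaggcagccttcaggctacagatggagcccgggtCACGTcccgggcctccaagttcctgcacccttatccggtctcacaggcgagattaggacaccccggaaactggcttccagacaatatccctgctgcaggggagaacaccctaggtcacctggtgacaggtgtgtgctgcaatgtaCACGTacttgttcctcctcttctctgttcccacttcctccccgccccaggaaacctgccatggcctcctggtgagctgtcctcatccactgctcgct
FUT2 held neither motif in this window and FUT3 held ACGTG at 2 places. Over all members, RefSeq listed 15 promoters for the 10 genes. ACGTG was found in 5 of them (33.3%), against 21.4% of 35116 promoters of all genes, and GCGTG in 6 of them (40%), against 36.5% (both strands; a CACGTG match counts on both). Of the other motifs searched on both strands, the CDX motif TTTATG was in 2 member promoters against 10.6% of all promoters, the HNF1 motif GTTAAT was in none against 6.88%, the AP-1 motif TGANTCA was in 1 against 7.71% and the SP1 motif GGGCGG was in 10 against 45%. These matches are descriptions of the letters in the windows and nothing else.

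The first question was whether these genes differ between 2D and 3D growth within a line. Each line was compared on its own by edgeR's quasi-likelihood test with Benjamini-Hochberg adjustment over all 19387 genes tested, and a gene is called when the adjusted p is under 0.05. In HT29, 6 of 10 members were called (4 higher and 2 lower in 3D), where 40.7% of all genes were called, 21.1% as higher and 19.6% as lower. In LS513, 5 of the 9 members compared were called (4 higher and 1 lower), against 23.6% of all genes, 13.7% as higher and 9.90% as lower. In HCT116, 8 of 10 were called (5 higher and 3 lower), against 29.1% of all genes, 16.8% as higher and 12.3% as lower. In LS174T, 4 of 10 were called (2 higher and 2 lower), against 22.2% of all genes, 13.1% as higher and 9.15% as lower. B3GALT2 had no count in HT29 and HCT116 and could not be called there. The median log2 fold change over the other 9 members was 0.22 for HT29, 0.37 for LS513, 0.31 for HCT116 and 0.09 for LS174T, beside medians of all genes between 0 and 0.02. The libraries of 2D and 3D did not overlap for 5 of 10 members in HT29 (52.9% of all genes), 8 of 9 in LS513 (42.9%), 6 of 10 in HCT116 (40.4%) and 4 of 10 in LS174T (38.5%). The study's own cutoffs ask for a log2 fold change that is either below -0.5 or above 1.5 at a p for which no adjustment is stated. Taken with the adjusted p and as 3D over 2D, they left 1 member for HT29 (17.4% of all genes), 2 for LS513 (8.03%), 3 for HCT116 (9.28%) and 1 for LS174T (7.26%). Of the 23 calls at the adjusted p alone, 10 held in every alternative fit, and these concerned FUT2 and FUT8 in HT29, FUT3 in LS513, HCT116 and LS174T, B3GNT3 in HCT116 and LS174T, ST3GAL4 in HT29 and LS513, and ST6GAL1 in LS513.

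**Figure D1:**
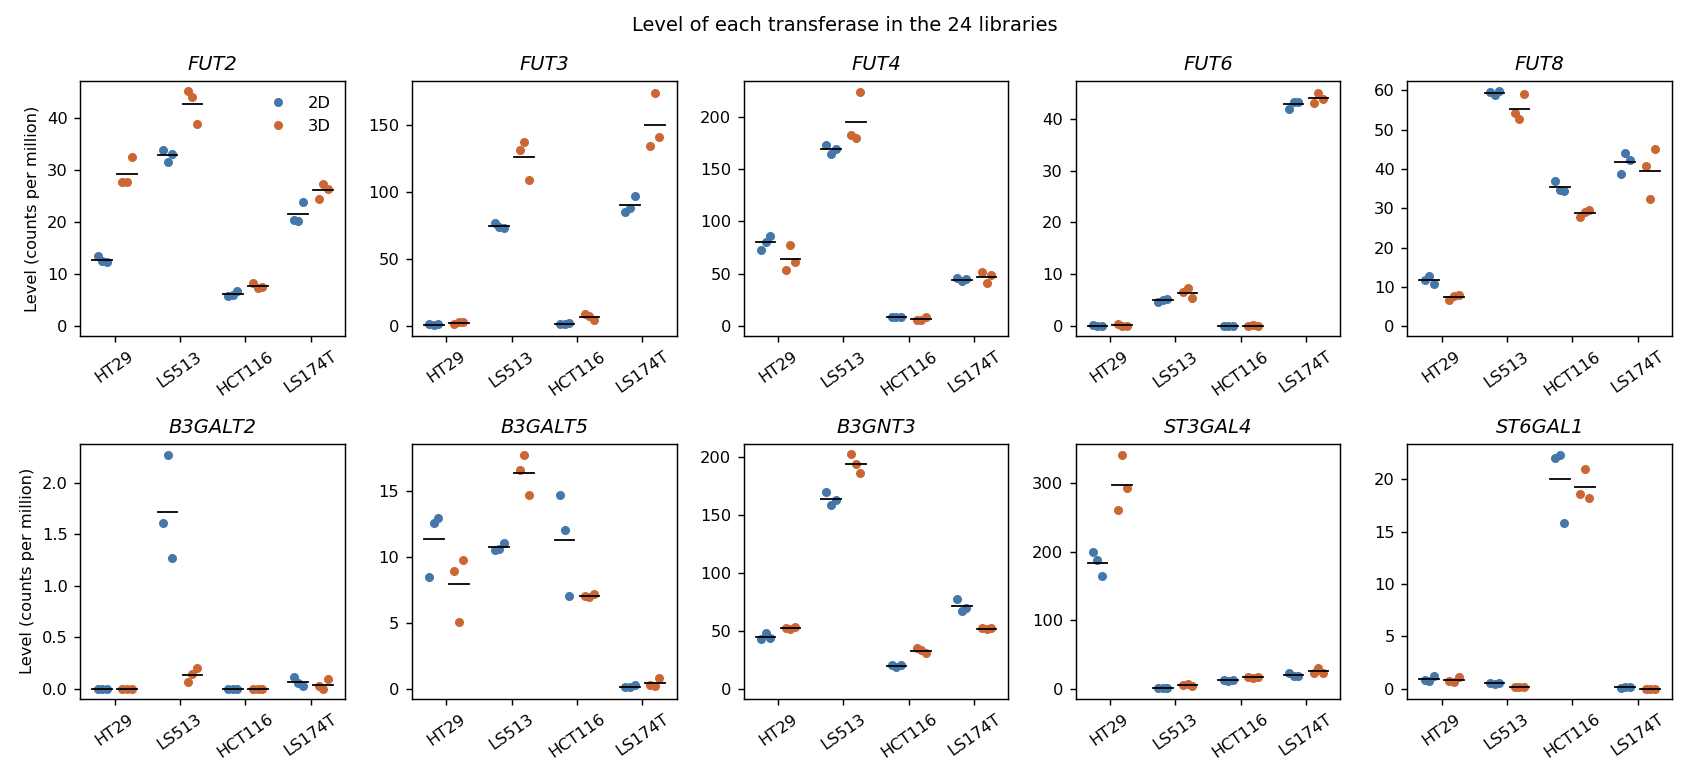
Level of each of the 10 transferases in CPM (vertical axis, own linear scale in each panel, from 0) in the 4 lines, with 1 point for each library (blue, 2D; orange, 3D) and a black bar at the mean of the 3 libraries. Differences between lines, as for ST3GAL4 in HT29 or ST6GAL1 in HCT116, span more than the differences between 2D and 3D for most genes, and FUT3 was higher in 3D in each line.

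FUT2 (ENSG00000176920; chr19:48695971-48705950, plus strand), the secretor gene of secretory epithelia, was higher in 3D in all 4 lines, and by far most in HT29. In HT29 its level was 13.4, 12.5 and 12.3 CPM in the 2D libraries and 27.8, 27.8 and 32.6 CPM in the 3D libraries. The lowest 3D library was thus more than double the highest 2D library, with a log2 fold change of 1.20 ± 0.10 (SE; edgeR adjusted p = 1.03e-08). In LS513 the mean went from 32.9 ± 1.17 to 42.7 ± 3.34 CPM (SD, n = 3; log2 fold change 0.38 ± 0.10 SE, edgeR adjusted p = 0.00716). In HCT116 it went from 6.22 ± 0.497 to 7.70 ± 0.519 CPM (0.31 ± 0.11, edgeR adjusted p = 0.0356) and in LS174T from 21.5 ± 2.02 to 26.2 ± 1.49 CPM (0.28 ± 0.10, edgeR adjusted p = 0.0447). In each line the 2D and 3D libraries did not overlap. The change in HT29 was larger than that in LS513 by 0.83 ± 0.14 (SE), than that in HCT116 by 0.90 ± 0.15 and than that in LS174T by 0.92 ± 0.14 on the log2 scale, with edgeR adjusted p of 0.000279, 0.000255 and 0.000230 for these differences. No difference was called among LS513, HCT116 and LS174T, the largest being 0.09 ± 0.14. The smaller changes were near the threshold. The call in LS513 was lost without 3D replicate 1 (edgeR adjusted p = 0.0536), that in HCT116 without each of 2D replicates 1 and 2 and 3D replicates 1, 2 and 3 (0.0624 to 0.181), and that in LS174T without each of 2D replicates 1 and 2 and 3D replicates 2 and 3 (0.0717 to 0.164). With no filter on low counts, the adjusted p was 0.0664 for LS513, 0.291 for HCT116 and 0.230 for LS174T, and with the 6 libraries of a line alone it was 0.154 for HCT116 and 0.141 for LS174T.

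FUT3 (ENSG00000171124; chr19:5842888-5851474, minus strand), the Lewis fucosyltransferase itself, was higher in 3D in all 4 lines although its level differed widely between them. In HCT116 the 2D libraries had 2.05, 1.44 and 2.34 CPM and the 3D libraries 8.94, 7.74 and 4.41 CPM. All 3 libraries in 3D lay above all 3 in 2D, replicate 3 being the lowest of them, and the log2 fold change was 1.86 ± 0.23 (SE, edgeR adjusted p = 3.22e-06). In HT29 the libraries had 39, 24 and 27 counts in 2D and 60, 89 and 81 counts in 3D, or 1.21 ± 0.344 and 2.61 ± 0.695 CPM (SD, n = 3), again without overlap (1.12 ± 0.29, edgeR adjusted p = 0.00335). The lines with abundant FUT3 changed by less than doubling. In LS513 the 2D libraries had 77.1, 73.9 and 73.1 CPM and the 3D libraries 131, 138 and 109 CPM (0.76 ± 0.18, edgeR adjusted p = 0.00343). In LS174T the 2D libraries had 85.0, 88.7 and 97.0 CPM and the 3D libraries 134, 174 and 141 CPM (0.73 ± 0.18, edgeR adjusted p = 0.00587). No library in 3D was as low as any in 2D in either of these lines. The growth effect differed between the 4 lines (edgeR adjusted p = 0.0268), and pair by pair HCT116 exceeded LS513 by 1.10 ± 0.29 and LS174T by 1.13 ± 0.29 (edgeR adjusted p = 0.0301 and 0.0251). That difference between lines was no longer called without any of the HCT116 2D replicates 1 and 2 and 3D replicates 1 and 2, with edgeR adjusted p from 0.0565 to 0.112.

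FUT6 (ENSG00000156413; chr19:5830610-5839731, minus strand), the plasma-type fucosyltransferase beside FUT3, was counted at a fair level in LS513 and LS174T alone. In LS174T it had 41.9, 43.1 and 43.2 CPM in 2D and 43.1, 45.0 and 43.8 CPM in 3D, so the libraries of both conditions overlapped (log2 fold change 0.04 ± 0.25 SE, edgeR adjusted p = 0.954). In LS513 it had 4.73, 5.05 and 5.23 CPM in 2D and 6.55, 7.35 and 5.47 CPM in 3D. The 3D libraries were higher without overlap, but the change was not called by edgeR (0.37 ± 0.28, adjusted p = 0.382) and was called by DESeq2 (0.38, adjusted p = 0.0232). In HT29 the counts were 5, 0 and 0 in 2D and 14, 2 and 0 in 3D. In HCT116 they were 0, 0 and 0 in 2D and 4, 7 and 0 in 3D. In HCT116 edgeR called this as higher (adjusted p = 0.0436), a call that rests on 11 counts in 2 libraries. It was lost without each of the 2D replicates and without 3D replicate 1 or 2 (adjusted p from 0.0790 to 0.180). In 2D, the level in LS513 was at least 54.9-fold and that in LS174T at least 469-fold above the floor of 3 counts in HCT116 libraries, in which no read was counted. Thus in the lines with abundant FUT3 transcripts, FUT3 rose in 3D while FUT6, on the same stretch of chromosome 19, was not called by edgeR, and the difference between these genes was not tested.

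FUT4 (ENSG00000196371; chr11:94543840-94549898, plus strand), which makes Lewis x structures and is a single-exon gene, was not called as higher in any line. In HT29 the level was 72.3, 80.8 and 86.6 CPM in 2D and 53.7, 77.3 and 61.3 CPM in 3D. One library in 3D lay within the range of 2D, and the fall by 0.32 ± 0.13 (SE) on the log2 scale was just called (edgeR adjusted p = 0.0466). It was lost without each of 2D replicates 1, 2 and 3 and 3D replicates 1 and 4 (0.0625 to 0.328), and in the fits with DESeq2's size factors, with no filter, with the 6 HT29 libraries alone and by DESeq2 itself (0.0647 to 0.102). In HCT116, a line with less FUT4, the level was 8.97, 9.29 and 9.27 CPM in 2D and 6.28, 6.08 and 8.49 CPM in 3D. These did not overlap, and the fall by 0.40 ± 0.14 (edgeR adjusted p = 0.0358) was lost without each of 2D replicates 1 and 2 and 3D replicates 1 and 2 (0.0703 to 0.129) and with the 6 HCT116 libraries alone (0.0636). LS513 went from 169 ± 4.25 to 195 ± 24.3 CPM and LS174T from 44.6 ± 1.45 to 47.3 ± 5.48 CPM (SD, n = 3), with edgeR adjusted p of 0.245 and 0.667. FUT4 shares 11.3% of its exonic bases with PIWIL4 on the same strand and 10.8% with AP000943.3 on the other, and 10.5% of its 75-base words also occur in transcripts of another gene, so a part of its count is uncertain.

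FUT8 (ENSG00000033170; chr14:65410592-65744121, plus strand), the core fucosyltransferase of N-glycans, was lower in 3D in HT29, with 11.9, 12.7 and 10.8 CPM in 2D and 6.67, 7.75 and 7.87 CPM in 3D. The conditions did not overlap, and the log2 level fell by 0.67 ± 0.11 (SE, edgeR adjusted p = 6.65e-05). In HCT116 it went from 35.4 ± 1.45 to 28.9 ± 0.946 CPM (SD, n = 3) and fell by 0.29 ± 0.10 (edgeR adjusted p = 0.0360), a call lost without each of 2D replicates 1 and 2 and 3D replicates 1 and 2 (0.0655 to 0.128) and with no filter on low counts (0.0890). LS513 had 59.3 ± 0.535 CPM in 2D and 55.3 ± 3.32 CPM in 3D, and LS174T had 41.7 ± 2.64 and 39.4 ± 6.50 CPM, neither of them called (edgeR adjusted p = 0.534 and 0.599). The fall in HT29 was larger than the change in LS513 by 0.57 ± 0.15 and than that in LS174T by 0.59 ± 0.15 (edgeR adjusted p = 0.0140 and 0.0193). FUT8-AS1 overlaps 12.3% of the exonic bases of FUT8 on the other strand.

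**Figure D2:**
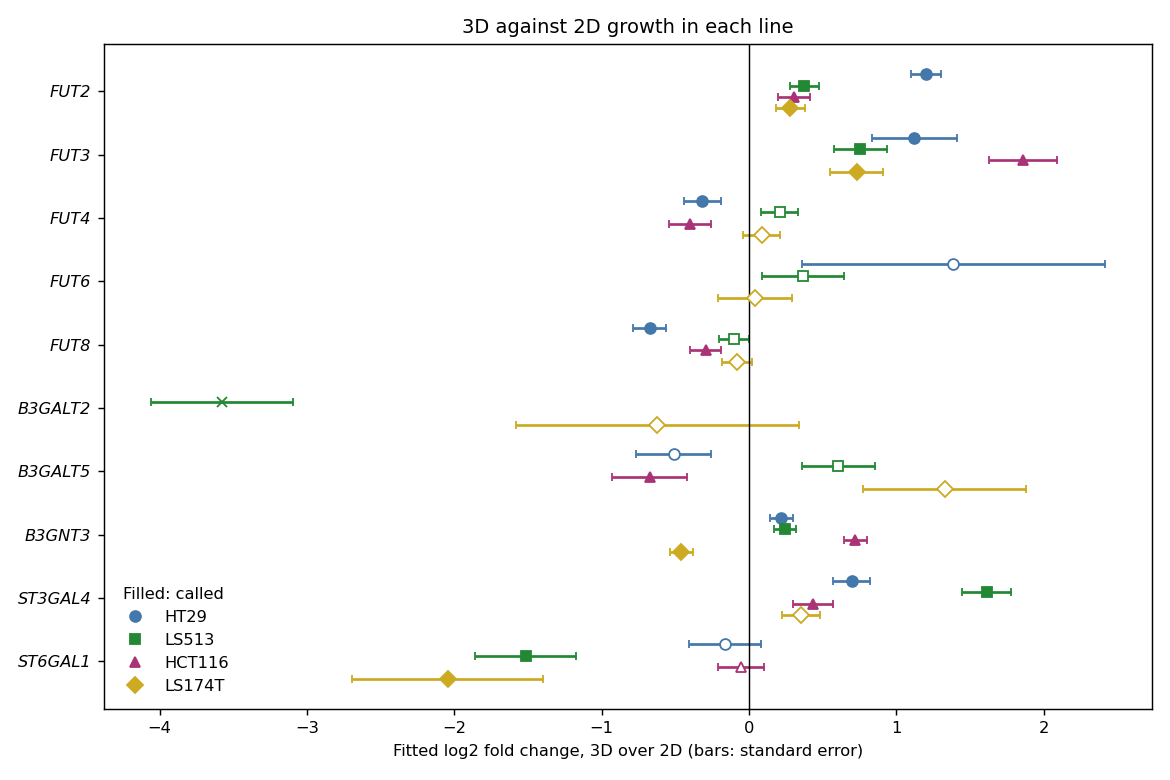
Fitted log2 fold change of 3D over 2D (horizontal axis, bars are the standard error) for each member in HT29 (circles), LS513 (squares), HCT116 (triangles) and LS174T (diamonds). Filled symbols are called, the cross is B3GALT2 in LS513, which chose that gene and has no test, and genes with no count in a group have no point. FUT2, FUT3 and ST3GAL4 lie to the right in all lines, ST3GAL4 in LS174T without a call. B3GNT3 lies on both sides, and the ST6GAL1 changes in LS513 and LS174T rest on few counts.

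B3GNT3 (ENSG00000179913; chr19:17794828-17813082, plus strand), which extends core O-glycans with N-acetylglucosamine, moved in opposite directions. In HCT116 it had 20.7, 19.1 and 20.2 CPM in 2D and 35.01, 33.3 and 30.8 CPM in 3D, clear of each other, and increased by 0.72 ± 0.08 (SE) on the log2 scale (edgeR adjusted p = 4.05e-07). In LS174T it had 77.7, 67.0 and 69.9 CPM in 2D and 52.3, 51.7 and 52.1 CPM in 3D, where the 3D libraries were close together and all below those in 2D. This was a fall by 0.46 ± 0.08 (edgeR adjusted p = 0.000182). Small increases were called in HT29, from 45.1 ± 2.48 to 52.6 ± 1.22 CPM (SD, n = 3; 0.22 ± 0.08, edgeR adjusted p = 0.0250), and in LS513, from 163 ± 5.85 to 194 ± 7.96 CPM (0.25 ± 0.07, edgeR adjusted p = 0.0184). The call in LS513 was lost without each of 2D replicates 2 and 3 and 3D replicates 1 and 2 (0.0528 to 0.111), and with no filter on low counts neither was called (edgeR adjusted p = 0.119 in HT29 and 0.222 in LS513). The growth effect in HCT116 exceeded that in LS174T by 1.18 ± 0.11 (edgeR adjusted p = 1.66e-07), and HT29 and LS513 each differed from both of these lines (edgeR adjusted p from 0.000253 to 0.0101) but were not called as different from each other (-0.03 ± 0.11).

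B3GALT5 (ENSG00000183778; chr21:39556442-39673137, plus strand), the main galactosyltransferase of type 1 chains in colon, also had effects of differing sign. In LS513 it had 10.5, 10.6 and 11.1 CPM in 2D and 16.6, 17.7 and 14.7 CPM in 3D. These did not overlap, yet the change of 0.61 ± 0.25 (SE) on the log2 scale was not called (edgeR adjusted p = 0.0811), while the fit of the 6 LS513 libraries alone and the fit with no filter on low counts called it (adjusted p = 0.00283 and 0.00617). In HCT116 it had 14.7, 12.0 and 7.06 CPM in 2D and 7.05, 6.96 and 7.19 CPM in 3D, so 2D replicate 3 sat among the 3D libraries. The fall by 0.67 ± 0.25 (edgeR adjusted p = 0.0487) was lost without each of 2D replicates 1 and 2 and 3D replicates 1, 2 and 3 (0.0751 to 0.283) and with DESeq2's size factors (0.0507). In HT29 the level was 11.3 ± 2.45 CPM in 2D and 7.92 ± 2.52 CPM in 3D (SD, n = 3) with overlap (edgeR adjusted p = 0.114, and 0.0481 with no filter on low counts). In LS174T there were 5, 4 and 10 counts in 2D and 11, 7 and 26 counts in 3D, with overlap, which edgeR did not call (adjusted p = 0.0807) but which was called with no filter (edgeR adjusted p = 0.00627) and by DESeq2 (adjusted p = 0.0214). The growth effect differed between lines (edgeR adjusted p = 0.0110), namely between LS513 and HT29 by 1.12 ± 0.36 and between LS513 and HCT116 by 1.28 ± 0.35 (edgeR adjusted p = 0.0413 and 0.0388), and the test over the 4 lines stayed past the threshold in all alternatives run.

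B3GALT2 (ENSG00000162630; chr1:193179045-193186654, minus strand), a galactosyltransferase of the same family, reached more than 4 counts in LS513 alone. The LS513 libraries had 50, 75 and 40 counts in 2D and 2, 4 and 6 counts in 3D, or 1.71 ± 0.508 and 0.140 ± 0.0687 CPM (SD, n = 3), and every 2D library was far above every 3D library. The fitted log2 fold change was -3.57 ± 0.48 (SE), which is the value the gene was chosen for. HT29 and HCT116 had no count in any of their 12 libraries, and LS174T had 4, 2 and 1 counts in 2D and 1, 0 and 3 counts in 3D. In 2D the LS513 level was at least 13.9-fold above the floor in HT29 and at least 18.8-fold above that in HCT116. The LS513 level in 2D is part of the fall that chose the gene, so these bounds are a description as well. The gene lies within CDC73 on the opposite strand, 5.01% of its exonic bases overlapping exons of CDC73, and whether the counting used strand is not given in the sources used here.

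ST3GAL4 (ENSG00000110080; chr11:126355640-126440344, plus strand), a sialyltransferase that caps galactose and serves the synthesis of sialyl Lewis x, was called as higher in 3D in HT29, LS513 and HCT116. In HT29, where it was most abundant, the 2D libraries had 199, 187 and 165 CPM and the 3D libraries 261, 341 and 293 CPM. These were well apart, with a log2 fold change of 0.70 ± 0.12 (SE, edgeR adjusted p = 0.000127). In LS513, where it was scarce, it had 1.96, 2.02 and 1.71 CPM in 2D and 5.74, 6.89 and 4.85 CPM in 3D, each 3D library exceeding double any 2D library (1.61 ± 0.17, edgeR adjusted p = 2.54e-07). In HCT116 it went from 12.4 ± 0.459 to 16.8 ± 0.818 CPM (SD, n = 3; 0.44 ± 0.13, edgeR adjusted p = 0.0165), a call lost without 2D replicate 2, 3D replicate 1 or 3D replicate 3 (0.0516 to 0.0652). In LS174T it had 23.7, 18.7 and 18.6 CPM in 2D and 23.7, 31.0 and 23.4 CPM in 3D, with overlap, and lay at the threshold (0.35 ± 0.13, edgeR adjusted p = 0.0516, and 0.0381 by DESeq2). It was called in LS174T without 2D replicate 1, 3D replicate 1 or 3D replicate 3 (edgeR adjusted p from 0.0243 to 0.0467). The same holds with DESeq2's size factors (edgeR adjusted p = 0.0469) and with no filter on low counts (0.0395). The change in LS513 exceeded those in HT29, HCT116 and LS174T by 0.92 ± 0.21, 1.18 ± 0.21 and 1.26 ± 0.21 (edgeR adjusted p = 0.00420, 0.00139 and 0.000668).

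ST6GAL1 (ENSG00000073849; chr3:186930485-187078553, plus strand), the main enzyme for the other sialic acid linkage on N-glycans, was abundant in HCT116 alone, with 22.0, 22.3 and 15.8 CPM in 2D and 18.6, 20.9 and 18.2 CPM in 3D. The conditions overlapped there, and the log2 fold change was -0.06 ± 0.16 (SE, edgeR adjusted p = 0.848). In LS513 the libraries had 17, 16 and 19 counts in 2D and 6, 5 and 5 counts in 3D, a fall by 1.52 ± 0.34 without overlap (edgeR adjusted p = 0.00199). In LS174T they had 3, 6 and 6 counts in 2D and 1, 1 and 1 counts in 3D (fall by 2.04 ± 0.65, edgeR adjusted p = 0.0328). All 3D values of LS174T are below the floor, and the call was lost without each of 2D replicates 2 and 3 and 3D replicates 1, 2 and 3 (0.0587 to 0.105) and by DESeq2 (adjusted p = 0.0670). HT29 had between 19 and 31 counts in all its libraries, with overlap (edgeR adjusted p = 0.665). The change in LS513 differed from that in HT29 by 1.35 ± 0.42 and from that in HCT116 by 1.46 ± 0.38 (edgeR adjusted p = 0.0356 and 0.0228).

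The second question was whether the growth effect differed between lines. Of the 9 members tested over all 4 lines, 8 had a growth effect that differed (edgeR interaction test, adjusted p under 0.05), beside 17.1% of all genes, and FUT6 was the exception (adjusted p = 0.183), although it was called by edgeR with no filter on low counts and by DESeq2 (adjusted p = 0.00118 in both). B3GALT2 had no count in HT29 and HCT116, so the same test over these lines and LS174T, in which 12.2% of all genes were called, says nothing about it. Of these 8, FUT2, B3GALT5, B3GNT3, ST3GAL4 and ST6GAL1 were called in all alternatives run. FUT8 (adjusted p = 0.0226) lost the call without each of HT29 2D replicates 1 and 2 and 3D replicates 1 and 3, LS513 3D replicates 1 and 3 and HCT116 3D replicate 2 (0.0513 to 0.113), and with no filter on low counts (0.142). FUT4 (adjusted p = 0.0406) kept the call without HT29 2D replicate 1 or 3D replicate 3, LS513 3D replicate 1 or 2, HCT116 3D replicate 3 and LS174T 3D replicate 2 or 3, and lost it without any other library (0.0509 to 0.0875). None of the pairs of lines was called for FUT4, the nearest being HT29 against LS513 (-0.53 ± 0.18 SE, edgeR adjusted p = 0.0537).

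The third question was how the levels rank between lines. Levels over both growth conditions differed for 51 of the 54 pairs of lines of the 9 members other than B3GALT2, against 73.2% of all gene and pair tests (edgeR adjusted p under 0.05 within each pair). The share of all genes called was 69.3% between HT29 and LS513, 75.7% between HT29 and HCT116, 73.5% between HT29 and LS174T, 76.2% between LS513 and HCT116, 68.9% between LS513 and LS174T and 76.0% between HCT116 and LS174T. LS513 had the highest level of FUT2, FUT4, FUT8, B3GALT5 and B3GNT3, LS174T of FUT3 and FUT6, HT29 of ST3GAL4 and HCT116 of ST6GAL1. For FUT3 the order was LS174T (120 CPM), LS513 (100 CPM), HCT116 (4.49 CPM) and HT29 (1.91 CPM), and the difference between the first pair was not called (0.26 ± 0.13 SE on the log2 scale, edgeR adjusted p = 0.0709). For ST3GAL4 the order was HT29 (241 CPM), LS174T (23.2 CPM), HCT116 (14.6 CPM) and LS513 (3.86 CPM), each step called, and the fitted level in HT29 was 70.3-fold that in LS513 (edgeR adjusted p = 1.04e-22). LS513 and LS174T thus had the most FUT3 and HT29 had the most ST3GAL4 but the least FUT3.

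For ST6GAL1 the order was HCT116 (19.6 CPM), HT29 (0.897 CPM), LS513 (0.366 CPM) and LS174T (0.0893 CPM), again with each step called. The fitted level in HCT116 was 22.3-fold that in HT29 (edgeR adjusted p = 1.32e-18). The last step rests on few counts, 5 to 19 in the LS513 libraries and 1 to 6 in those of LS174T, whose mean lies near the floor. For FUT6, LS174T (43.3 CPM) was 7.62-fold above LS513 (5.73 CPM; edgeR adjusted p = 1.00e-11), and the difference between HT29 and HCT116 was not called (edgeR adjusted p = 0.0657). For B3GALT5, LS513 (13.5 CPM) was ahead of HT29 (9.63 CPM) and HCT116 (9.16 CPM), which were not called as different (log2 difference 0.08 ± 0.18, edgeR adjusted p = 0.692), and LS174T (0.325 CPM) was 29.7-fold below HCT116 (edgeR adjusted p = 2.18e-14). LS174T therefore had abundant Lewis fucosyltransferase transcripts with hardly any of B3GALT5. HCT116 had the lowest level of FUT2 (6.96 CPM), FUT4 (8.06 CPM) and B3GNT3 (26.5 CPM), and HT29 the lowest of FUT8 (9.61 CPM).

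Between genes, levels were compared per kilobase of exon (mean CPM per kb of 6 libraries). In HT29, ST3GAL4 came first with 54.0, followed by B3GNT3 with 21.2 and FUT4 with 11.9. In LS513, B3GNT3 came first with 77.7, followed by FUT3 with 32.3 and FUT4 with 30.0. In HCT116, B3GNT3 came first with 11.53, followed by FUT8 with 4.79 and ST3GAL4 with 3.27. In LS174T, FUT3 came first with 38.6, followed by B3GNT3 with 26.8 and FUT6 with 9.97. Of the summed CPM per kb of the 10 members, the leading gene made up 56.1% for HT29, 47.6% for LS513, 42.35% for HCT116 and 38.1% for LS174T, so the make-up of the set differed from line to line. Exon length was taken as the union of all annotated exons, which for B3GALT5 (14319 bases) and ST6GAL1 (9151 bases) includes exons that the cells may not use.

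**Figure D3:**
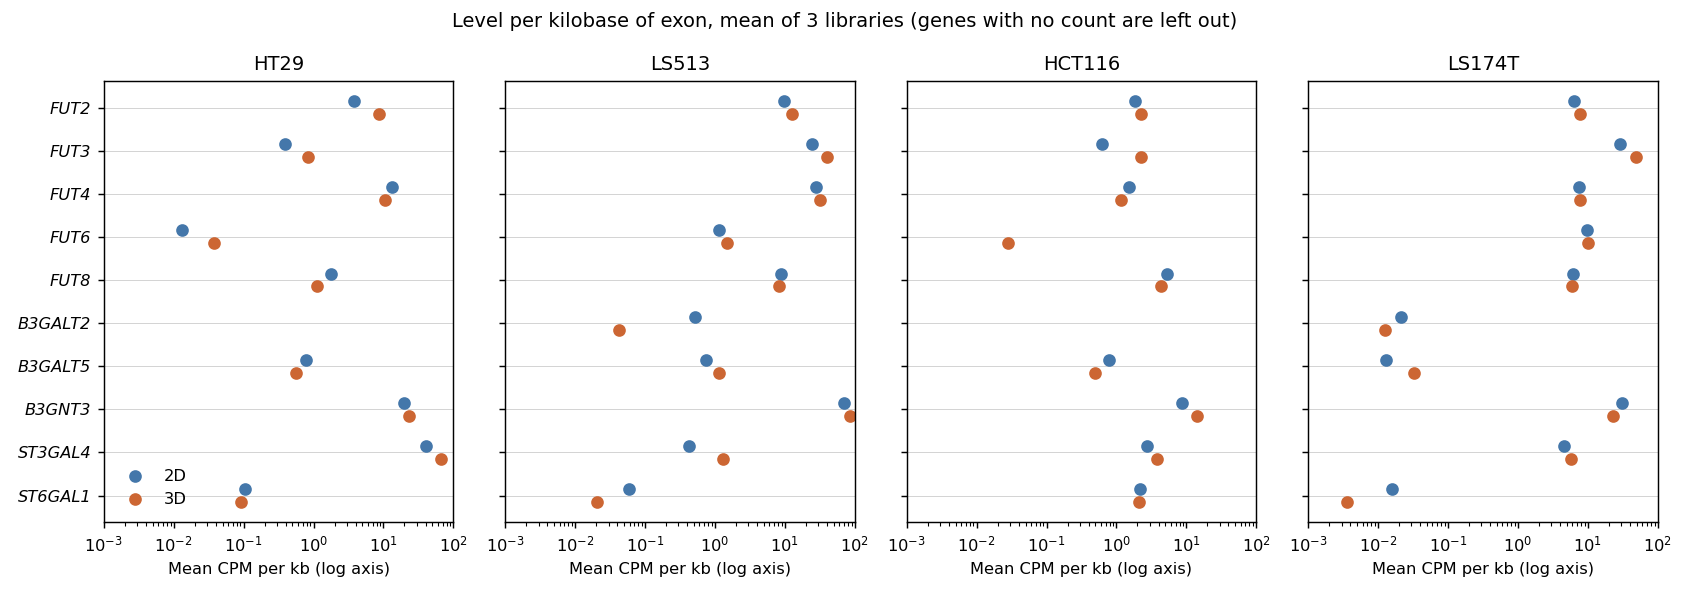
Mean CPM per kb of exon (log axis) of each member in each line, blue for 2D and orange for 3D, each point a mean of 3 libraries. ST3GAL4 leads in HT29, B3GNT3 in LS513 and HCT116 and FUT3 in LS174T, and points are missing where no read was counted.

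For each member, the 2 other genes nearest in profile over the 8 groups were found by the root mean square (RMS) difference of centred mean log2(CPM + 1), as a description over 8 group means. The nearest to FUT2 was MGST2, a glutathione transferase, at 0.107 log2 units, followed by STAT6 at 0.214, where the profile of FUT2 itself had an RMS of 0.890 around its mean. FUT3 was nearest to DPEP1 (0.328), a dipeptidase that trims glutathione and leukotrienes, and to TRABD2A (0.558). ST3GAL4 was nearest to CORO2A (0.475) and SULF2 (0.565), and FUT6 to TUBAL3 (0.349) and IRF8 (0.354). ST6GAL1 was nearest to COL1A1 (0.215) and GFPT2 (0.225). FUT8 was nearest to JPH1 (0.177) and GALNT6 (0.178), B3GNT3 to EVPL (0.202) and RAB27B (0.225), and B3GALT5 to SLC25A43 (0.322) and FRG1CP (0.346). FUT4 was nearest to GSAP (0.258) and to PIWIL4 (0.268), the gene with which it shares exonic bases. B3GALT2, with few counts, was nearest to RHOBTB1 (0.154) and B3GNT2 (0.225). Among the members, FUT2 and B3GNT3 were the closest pair (0.491), and FUT3 and FUT6 lay at 1.10.

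The other genes of the pathway were counted in 10 lists of 76 genes, of which 69 passed the filter. In HT29, 26 of the 69 were called as higher and 8 as lower (background 21.1% and 19.6%), in LS513 18 and 6 (13.7% and 9.90%), in HCT116 18 and 7 (16.8% and 12.3%), and in LS174T 14 and 6 (13.1% and 9.15%). The 5 genes of UDP-galactose supply were called as higher in 3 cases for HT29, 2 for LS513, 4 for HCT116 and 2 for LS174T. In LS174T the galactokinase gene GALK1 led this list (log2 fold change 0.81 ± 0.17 SE, edgeR adjusted p = 0.00180). Supply of GDP-fucose had 3 of 6 genes higher in HT29, led by the fucose kinase gene FCSK (0.54 ± 0.14), 1 in LS513, the transporter gene SLC35C2 (0.45 ± 0.10). For CMP-sialic acid supply, 2 of 5 were higher and 1 lower in HT29, 1 was higher in LS513 and 2 were higher in LS174T, with NANS, which makes sialic acid, leading in HT29 (0.33 ± 0.10) and CMAS, which activates it, leading in LS513 and LS174T (0.47 ± 0.09 in both).

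**Figure D4:**
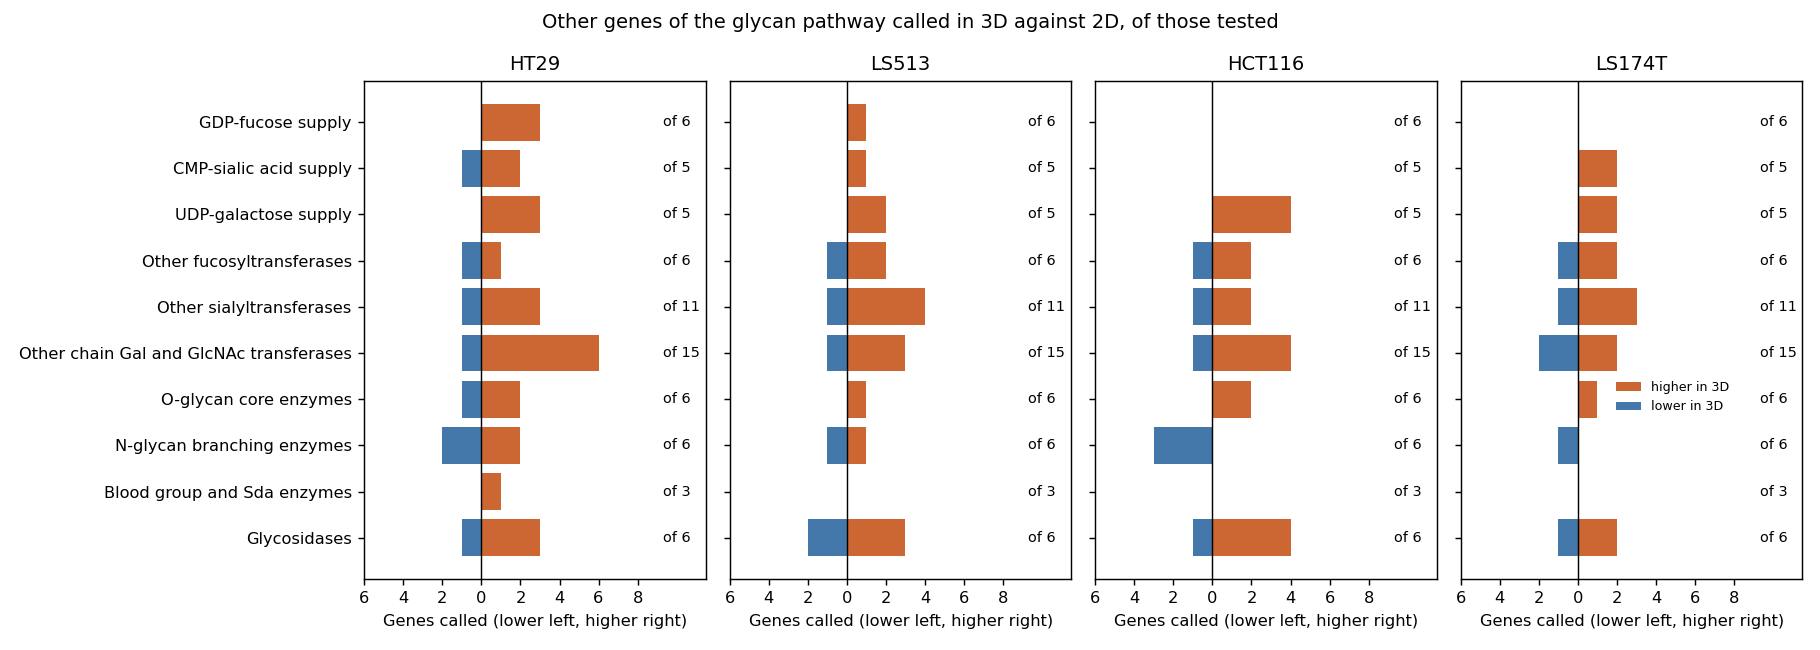
Number of other pathway genes called as higher (orange, to the right) or lower (blue, to the left) in 3D in each line, by list, with the number tested at the right. Higher calls outnumber lower calls in each line over all lists, as they do over all genes. Of all genes, 13.1% to 21.1% were called as higher and 9.15% to 19.6% as lower in a line. The N-glycan branching list has 3 lower calls and no higher call in HCT116.

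Among the 6 other fucosyltransferases that passed the filter, 1 to 2 were higher and 1 lower in each line. FUT7, which completes sialyl Lewis x, led in LS174T, with between 14 and 23 counts in the 2D libraries and between 156 and 172 counts in the 3D libraries (0.535 ± 0.118 and 5.41 ± 0.769 CPM, SD, n = 3). This is a log2 fold change of 3.32 ± 0.30 (SE, edgeR adjusted p = 1.55e-07), and in HT29 FUT7 led with 1.51 ± 0.33 (edgeR adjusted p = 0.000937). FUT11 led in LS513 (0.76 ± 0.20) and HCT116 (0.94 ± 0.19). FUT1, which like FUT2 makes H structures, lay between 8.72 and 14.1 CPM in all 8 groups. In LS513 it was called as lower, from 12.0 ± 1.56 to 9.28 ± 1.10 CPM (-0.37 ± 0.13, edgeR adjusted p = 0.0451), and it was called in no other line. FUT9 had no count in any library.

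Of the 11 other sialyltransferases tested, between 2 and 4 were higher and 1 lower in each line. Over all genes, 13.1% (LS174T) to 21.1% (HT29) were called as higher and 9.15% (LS174T) to 19.6% (HT29) as lower. ST6GALNAC2, of mucin-type O-glycans, led in LS513 (1.90 ± 0.28) and HCT116 (1.83 ± 0.28), ST6GALNAC6 in HT29 (1.07 ± 0.14), and ST3GAL2 was the lead in LS174T, where it fell by 0.61 ± 0.10. The 15 other chain transferases tested had 6 higher and 1 lower in HT29, 3 and 1 in LS513, 4 and 1 in HCT116, and 2 and 2 in LS174T. B3GALT4, a galactosyltransferase of gangliosides, led in HT29 (1.84 ± 0.24) and LS174T (1.36 ± 0.25), B3GNT7 in LS513 (2.08 ± 0.27) and B3GNT9 in HCT116 (0.82 ± 0.17).

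Among the O-glycan core enzymes, 2 of 6 were higher and 1 lower in HT29, led by the chaperone gene C1GALT1C1 (0.50 ± 0.10), and 1, 2 and 1 were higher in LS513, HCT116 and LS174T. GCNT3, the mucin-type branching enzyme, led in those 3 lines and went from 22.4 ± 4.601 to 129 ± 18.8 CPM in LS513 (SD, n = 3; 2.52 ± 0.15 SE, edgeR adjusted p = 1.70e-10). Of the 6 N-glycan branching genes, 2 were higher and 2 lower in HT29, 1 and 1 in LS513, while 3 were lower in HCT116 and 1 was lower in LS174T. MGAT5, which makes the branch that is often extended, led in LS513, where it fell by 0.73 ± 0.17, and in LS174T, where it fell by 0.91 ± 0.18. MGAT3, which adds the bisecting sugar, led in HT29 (1.03 ± 0.21) and MGAT2 in HCT116 (fall by 0.50 ± 0.11). Of the blood group genes, 1 of 3 was called, ABO in HT29 (0.72 ± 0.14). The shares of all genes to set beside these counts are again 13.1% to 21.1% as higher and 9.15% to 19.6% as lower. Of the 6 glycosidases tested, 3 were higher and 1 lower in HT29, 3 and 2 in LS513, 4 and 1 in HCT116, and 2 and 1 in LS174T. The sialidase NEU1 led in LS513 (1.29 ± 0.13) and HCT116 (1.36 ± 0.13), the fucosidase FUCA1 in HT29 (0.88 ± 0.12), and NEU3 in LS174T, where it fell by 0.68 ± 0.14. All these named leaders had the smallest p of their list in that line, so their size is a description of the extremes. A leader of 1 line can be called in others as well. NEU3 was called as lower and NEU1 and B3GALT4 as higher in all 4 lines. FUCA1 was also called as higher in HCT116 and LS174T, and FUT11 in LS174T (1.22 ± 0.20).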

How the data were processed

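RNA sequencing was done on 24 libraries, 3 for each of 4 CRC lines in 2D and in 3D. The deposited files hold unnormalized read counts of each gene, 1 file per technical replicate, which the authors made by trimming with Trim Galore 0.4.1, aligning with STAR, removing reads with more than 1 alignment and counting with HTSeq 0.5.3. Per the labels the genome build was hg19, whereas the gene identifiers fit GRCh38, where 57980 of 58243 were found in GENCODE 29. All positions given are GENCODE 29 on GRCh38, or RefSeq on GRCh38.p14 for promoters. Whether counting used strand is not given in the sources used here.

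The 8 technical replicates of a library were summed (7 for HT29 in 3D replicate 4, of which 1 was not analysed here), giving 18723942 to 34277421 counts. Technical replicates varied by 1.00 to 1.03 times the sampling variance and libraries of a group by 2.82 to 11.0 times. Groups came from the sample titles. Counts were fitted in R 4.3.3 with edgeR 4.0.16 (filterByExpr, TMM, robust quasi-likelihood, 1 coefficient for each of 8 groups, 16 residual degrees of freedom), with adjustment over 19387 genes at 0.05. CPM values are TMM scaled. Contrasts were 3D against 2D in each line, their difference between lines, and levels between lines. Pairwise differences between lines in the growth effect were added after the values were seen. The same fit was run on simulated data in which 200 genes had been changed.

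Alternatives were the size factors of DESeq2 1.42.0, all genes with at least 1 count, DESeq2 itself, a replicate block, the 6 libraries of a line alone, the study's cutoffs and leaving out each library. The members and lists were chosen with earlier results of these data known. Named genes are all members, the gene with the smallest p of each pathway list in each line where one was called, and the 2 nearest profiles of each member among genes with a mean of at least 1 CPM. One result under this rule is not reported here. FUT1, FUT5 and FUT9 were named after their values were seen. Symbols came from a gene name table, which matched 57532 identifiers, and motif searches and sequences used Python 3.11.15.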

Additional observations from a re-analysis of the deposited data

Results flagged for a closer look

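The growth effect of 8 members differed between the 4 lines by edgeR's interaction test with Benjamini-Hochberg adjustment over 19387 genes, and 17.1% of all genes did so. The adjusted p was 6.59e-07 for B3GNT3, which was higher in 3D in HT29, LS513 and HCT116 and lower in LS174T. It was 9.07e-05 for FUT2, which was higher in all 4 lines and most in HT29, and 0.000603 for ST3GAL4, which rose most in LS513.

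For ST6GAL1 the adjusted p was 0.00938, with falls in LS513 and LS174T from few counts and no call in HT29 or HCT116. For B3GALT5 it was 0.0110, the fitted log2 fold change being 0.61 for LS513, 1.33 for LS174T, -0.51 for HT29 and -0.67 for HCT116, of which only that in HCT116 was called. For FUT8 it was 0.0226, with a larger fall in HT29 than in LS513 and LS174T, and for FUT3 it was 0.0268, with a larger rise in HCT116 than in LS513 and LS174T. For FUT4 it was 0.0406, with falls in HT29 and HCT116 while the values for LS513 (0.21) and LS174T (0.09) on the log2 scale were not called. Which of these hold when a library is left out is given with each gene in the results.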

How the results depend on the processing

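Among 685 refits of single genes' results, 569 kept the side of the threshold, 100 lost the call and 16 gained one. Those that kept it include the refits of B3GALT2, 10 each for HT29, HCT116 and LS174T and 11 for LS513. B3GALT2 had no count in HT29 and HCT116 and no test in LS513, so its refits there could not change side and say nothing about stability. No called change turned its sign. Without 1 library, 4 changes that were not called did, namely ST6GAL1 in HT29 (from -0.16 to 0.07) and HCT116 (from -0.06 to 0.03), FUT8 in LS174T (from -0.08 to 0.05) and FUT6 in HT29 (from 1.39 to -0.79). The number of members called changed by more than 1.5 times under a few settings, and the cause was not tested except where fewer libraries were fitted. For the fits of fewer libraries and with the replicate block, the share of all genes called is not given here. A loss of calls among the members thus cannot be told from a loss over genes in general. In the fit of the 6 libraries of a line alone, HCT116 had 5 and LS174T 2. Under the study's cutoffs on the fold with the adjusted p, HT29 had 1 member called (FUT8), LS513 2 (ST3GAL4 and ST6GAL1), HCT116 3 (FUT3, FUT6 and B3GALT5) and LS174T 1 (ST6GAL1). Leaving out 1 library at a time, which leaves 2 in that group, gave 5 to 6 members for HT29, 3 to 5 for LS513, 2 to 7 for HCT116 and 2 to 4 for LS174T. The difference between lines came to 5 to 8 members. Levels came to 52 to 54 member and line pairs, B3GALT2 included (53 of 57 with all libraries). HCT116 came to 2 without 2D replicate 2 or 3D replicate 1, to 3 without 2D replicate 1 or 3D replicate 2 and to 5 without 3D replicate 3. LS174T came to 2 without 2D replicate 2 or 3D replicate 2, LS513 to 3 without 3D replicate 1, and the difference between lines to 5 without HCT116 in 3D replicate 2.

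The labels do not say whether equal replicate numbers mark paired libraries. Deviations from the group means correlated between -0.21 and 0.22 in 11 pairs with the same number and between -0.30 and 0.26 in 25 pairs with different numbers. These ranges overlap, which shows no pairing but cannot exclude it with 3 libraries in a group. With a replicate block, HT29 had 3 members called, LS513 had 4, HCT116 had 5 and LS174T had 3, 6 differed between lines, and 54 of 57 member and line pairs differed in level (53 without the block, B3GALT2 included). The B3GALT2 pairs in these level counts set HT29, HCT116 and LS174T side by side at 0 to 4 counts. That gene passed the filter on low counts only through LS513, so its calls here say nothing. For the difference between lines, FUT3 (edgeR adjusted p = 0.0710), FUT4 (0.0671) and FUT8 (0.239) were no longer called under the block and FUT6 was (0.0241). FUT3 in HT29, where only 2 numbers are shared between growth conditions, was among those not called under the block (log2 fold change 0.74, edgeR adjusted p = 0.115). In HT29, FUT4 (edgeR adjusted p = 0.117) and B3GNT3 (0.0957) lost the call too. So did B3GNT3 in LS513 (0.0608) and FUT2 in LS174T (0.0937). In HCT116 the block lost FUT2 (0.0811), FUT8 (0.0965) and B3GALT5 (0.0747). Depth limits FUT6 and B3GALT2 in HT29 and HCT116 and ST6GAL1 and B3GALT2 in LS174T, where most libraries held fewer than 10 counts.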
